A study of Arabidopsis thaliana with 9 samples.

Results

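Among 32399 nuclear loci of Arabidopsis thaliana, 76 had no nascent RNA count in the wild-type Col-0 library and at least 20 in each of the libraries labelled nrpd1-3 and nrpe1-11. These 76 loci are described here in all 6 libraries. They were picked by their nuclear run-on (NRO) counts, so their NRO difference from Col-0 is a description and was not tested. A further 2 loci that meet the counts, RDR2 (AT4G11130) and BOA (AT5G59570), were left out by the rule. The NCBI gene table of assembly TAIR10.1 listed 75 of the 76, of which 65 are protein-coding, 9 are pseudogenes and 1 is a tRNA gene. AT5G57181 has no entry there.

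The study compared leaves of 3-week-old plants, kept at 22 °C in long days with 16 h light periods, in 3 genotypes: Col-0, nrpd1-3, a mutant of the largest subunit of Pol IV, and nrpe1-11, a mutant of the largest subunit of Pol V. In NRO, isolated nuclei extend transcripts already under way with biotin-UTP, and the labelled RNA is captured on streptavidin. Steady-state nuclear RNA (RNA below) was counted beside it. Each assay and genotype had 1 library, so every ratio between libraries lacks a replicate check, and its 95% exact interval covers counting error only. Whether plants were pooled was not given in the sources used here.

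Pol IV and Pol V are plant relatives of Pol II that serve RNA-directed DNA methylation. Pol IV makes precursors of short interfering RNAs, and Pol V makes scaffold transcripts at which those RNAs guide DNA methylation. Some transposons and a small number of genes, the F-box gene SDC among them, are silenced at least in part in this way. Some of them are transcribed when the pathway is lost.

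NRO libraries held 2687149 gene counts in Col-0, 8185846 in nrpd1-3 and 7504294 in nrpe1-11, and RNA libraries held between 386011 and 709905. The rRNA locus AT3G41768 took 29.2% of the Col-0 NRO gene counts and 5.53% and 5.67% of those in nrpd1-3 and nrpe1-11. In RNA it took 53.6% in Col-0, 37.9% in nrpd1-3 and 43.6% in nrpe1-11. Alignments that were not unique, and so in no gene, numbered 14406062 in Col-0 NRO, 9496796 in nrpd1-3 and 8511333 in nrpe1-11. Levels are given in CPM, counts relative to a library size corrected by TMM, the trimmed-mean scaling of edgeR, which set the NRO libraries of nrpd1-3 and nrpe1-11 at 4.38 and 4.64 times the size of the Col-0 library. From here on, 3 counts in a row stand for the libraries of Col-0, nrpd1-3 and nrpe1-11 in that order. NRPD1, the gene mutated in nrpd1-3, had NRO counts of 9, 94 and 19, and NRPE1 had 24, 81 and 82. At the corrected library sizes these were 4.50, 10.7 and 2.05 CPM for NRPD1 and 11.99, 9.23 and 8.83 CPM for NRPE1. By CPM, NRPD1 was thus higher in the library that bears its mutant label than in Col-0. A total per gene cannot reveal an insertion, and each direction below is that of the library labelled so. Leaf mesophyll markers were abundant, with all 7 counted in every library and summed NRO levels of 6106, 4585 and 5710 CPM. The 15 markers of pollen, seed and flower organs reached at most 7.49 CPM per list in NRO and had no RNA count in any library. The 7 root markers summed to 25.97, 40.8 and 31.5 CPM in NRO and 12.5, 16.6 and 34.4 CPM in RNA, and the 3 guard cell and phloem markers to 32.5, 34.2 and 37.4 CPM in NRO. The part of such cells in the members' counts was not tested.

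The name "silent in Col-0" fitted the nascent counts by the rule itself, but not all of the RNA data. At the depth of the Col-0 NRO library, 0 counts leave room for 1.84 CPM. Of the 76 loci, 25 had at least 1 RNA count in Col-0, none with more than 3. The members are therefore called loci without a Col-0 NRO count.

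Depth bears directly on the rule. NRO counts of the members ran from 20 to 182 in nrpd1-3 (median 35.5) and from 20 to 309 in nrpe1-11 (median 34.5). At the level of the nrpd1-3 library, the Col-0 library would have held between 4.56 and 41.5 counts of a member (median 8.10), and at the level of nrpe1-11 between 4.31 and 66.6 (median 7.44). Against a floor of 3 Col-0 counts, or 1.498 CPM, the members stood 1.52- to 13.8-fold higher in nrpd1-3 and 1.44- to 22.2-fold higher in nrpe1-11. This ratio to the floor reached 2-fold in both mutants at 41 of the 76 loci and 5-fold at 7. With the counting error of the mutants included, the exact 95% lower limits of the ratio to Col-0 ran from 1.13 to 11.1 in nrpd1-3 and from 1.06 to 17.96 in nrpe1-11, and they reached 2 in both mutants at 24 loci and 5 at 4. These limits use the counts that chose the loci and do not allow for that choice, so they are a description. All 76 met a size rule (log2 ratio of at least 1 and a counting interval that excludes 1) in both mutants, which their selection fixed. Over all 16083 loci measured in NRO, 9.31% met it as higher in nrpd1-3 and 12.1% in nrpe1-11.

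Other loci lay close to the threshold on both of its sides. PUM20 (AT1G21620), a Pumilio-family RNA-binding protein, was just inside with 0, 20 and 22 NRO counts, as were NOP10 (AT2G20490), a nucleolar protein, with 0, 20 and 24, and AT2G14660 with 0, 25 and 20. Just outside were MEE21 (AT2G34570) with 0, 19 and 41, KNAT6 (AT1G23380), a homeobox gene of meristems, with 0, 33 and 19, and TIM9 (AT3G46560) with 0, 19 and 31. A further 131 loci differed from the members only by a single Col-0 count. Their median smaller mutant count was 29, against 28.5 among the members. Across all loci whose smaller mutant count was 20 to 49, 64 of 3816 had 0 counts in Col-0 (1.68%), and across loci with 50 or more, 14 of 10687 did (0.131%), the 2 loci left out by the rule included.

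**Figure D1:**
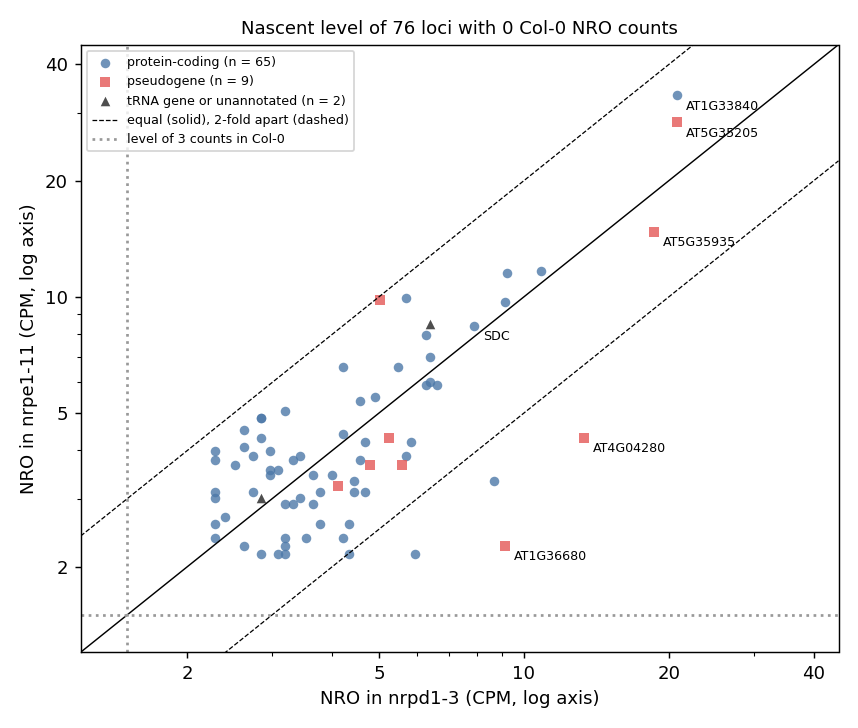
NRO level of each of the 76 loci in nrpd1-3 (horizontal) and nrpe1-11 (vertical), in CPM on log axes, 1 point per locus and 1 library per axis. Most points lie between the dashed lines of a 2-fold difference, while AT1G36680, AT4G04280, AT1G30814 and AT2G16050 lie below them, on the nrpd1-3 side, and PDLP2 lies at the line.

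The 7 members that stood 5-fold or more above the floor in both mutants led the set. AT1G33840, a protein-coding locus without a symbol, had 0, 182 and 309 NRO counts, or 13.8-fold and 22.2-fold more than the floor, with lower limits of 11.1 and 17.96. RNA counts of AT1G33840 were 0, 10 and 10, which is 3.78-fold and 3.44-fold above a floor of 3 Col-0 counts, with exact lower limits of the ratio of 2.54 and 2.31. Both assays thus gave counts in both mutants and none in Col-0.

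The pseudogenes AT5G35205 and AT5G35935 also had counts in both mutants and none in Col-0, in both assays. In this annotation, that class includes transposon genes. AT5G35205 had 0, 182 and 263 NRO counts and 0, 11 and 12 RNA counts. AT5G35935 had 0, 163 and 137 NRO counts and 0, 19 and 18 RNA counts, the most RNA counts of any member. RNA of AT5G35935 stood 7.18-fold above the floor in nrpd1-3 and 6.19-fold in nrpe1-11, with lower limits of 5.29 and 4.54.

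The other 4 of these 7 loci had many nascent counts and few RNA counts. AT4G25090 had 0, 95 and 108 NRO counts and 0, 0 and 2 RNA counts. AT5G24240 had 0, 81 and 107 in NRO and 1, 0 and 5 in RNA. WOX2 (AT5G59340), a homeobox factor that patterns the early embryo, had 0, 80 and 90 in NRO and 1, 1 and 3 in RNA. With 3 RNA counts worth 6.26, 7.10 and 6.46 CPM in these libraries, no RNA difference was detectable at these 3 loci, and the counts do not show that RNA levels were alike.

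SDC (AT2G17690) had 0, 69 and 78 NRO counts, which is 7.86 CPM (95% counting interval 6.12 to 9.95) and 8.40 CPM (6.64 to 10.5) in the mutants. RNA counts of SDC were 0, 2 and 1. In the TAIR10.1 table SDC overlaps AT2G17695, whose NRO counts of 7, 40 and 73 were above 0 in Col-0, and with the strand setting of the counting not given, reads of such a pair may not have been told apart. Closest to SDC over the log2 CPM of the 6 libraries were AHL20 (AT4G14465, distance 0.851), WOX2 (1.07), AT4G20820 (1.14), AT5G57181 (1.19) and AT4G25090 (1.26). This distance takes in the NRO counts that chose the loci and RNA counts of at most 3 at these loci, so it is a description only. AHL20, an AT-hook DNA-binding protein, had 0, 55 and 74 NRO counts and 1, 3 and 2 RNA counts, and AT5G57181 had 0, 56 and 79 NRO counts and no RNA count. AT4G20820 had 0, 43 and 51 in NRO and 1, 2 and 2 in RNA. Also among the 12 highest members was AT4G35720, with 0, 56 and 56 NRO counts and no RNA count. The tRNA gene AT1G33370 had 0, 25 and 28 NRO counts and no RNA count.

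**Figure D2:**
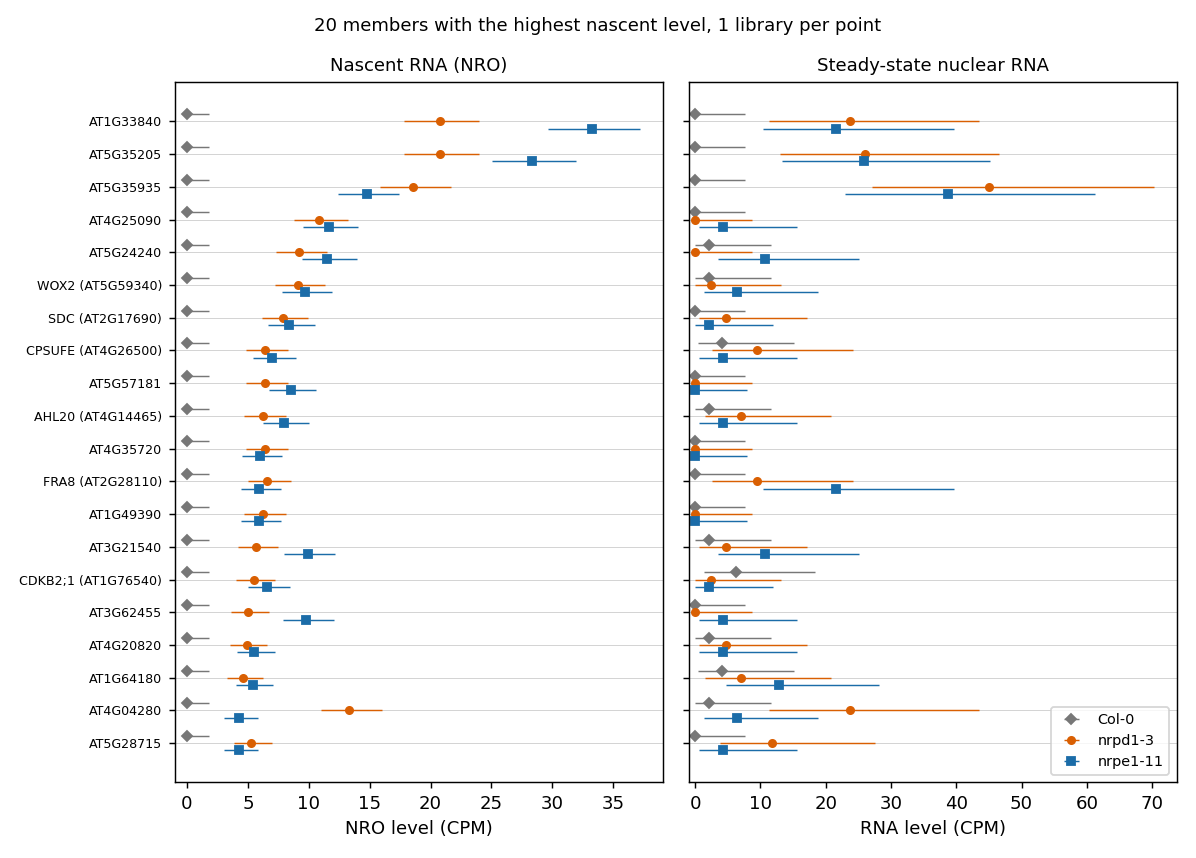
NRO (left) and RNA (right) level in CPM of the 20 members with the highest smaller-of-both-mutants NRO CPM. Points are single libraries and bars are exact 95% counting intervals. In RNA the intervals of Col-0 and both mutants lie apart at AT1G33840, AT5G35205 and AT5G35935, and overlap at most other loci.

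The pseudogenes as a class came next. Their NRO counts ran from 36 to 182 in nrpd1-3 and from 21 to 263 in nrpe1-11. In RNA, 7 had counts in nrpd1-3 and 6 in nrpe1-11, while 1 had a single RNA count in Col-0. Their summed RNA counts were 1, 62 and 43. The ratios to Col-0, 70.3 (counting interval 12.2 to 2821) and 44.4 (7.55 to 1792), rest on that 1 count. Besides the pair above, AT4G04280 had 0, 117 and 40 NRO counts and 1, 10 and 3 RNA counts. AT3G32195 had 0, 36 and 30 in NRO and 0, 5 and 6 in RNA, and AT5G28715 had 0, 46 and 40 in NRO and 0, 5 and 2 in RNA. AT1G35735 had 0, 49 and 34 in NRO and 0, 3 and 0 in RNA. AT3G62455, with 0, 44 and 91 NRO counts, and AT2G28053, with 0, 42 and 34, had 2 and 0 RNA counts in all. Pseudogenes held 22.4% of the members' NRO counts but 41.6% of their RNA counts in nrpd1-3, and 18.96% and 28.1% in nrpe1-11. Much of this RNA came from the pair above. Of the 43 counts in nrpe1-11, AT5G35935 held 18 and AT5G35205 held 12, and of the 62 in nrpd1-3 they held 19 and 11.

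Pseudogenes made up 9 of the 75 members in the table. Their share was 12.3% of all matched loci and 0.780% of those with at least 20 NRO counts in both mutants. Of the 113 pseudogenes that reached 20 counts in both mutants, 9 had 0 counts in Col-0 (7.96%). Of 14138 protein-coding loci that did, 67 had 0 (0.474%), the loci left out included. Limited to a smaller mutant count of 20 to 49, 7 of 53 pseudogenes (13.2%) and 56 of 3661 protein-coding loci (1.53%) were at 0 in Col-0. Since the rule used these counts, the shares carry no test.

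Of the 9 pseudogenes, 7 lay among other pseudogenes. Taking the 50 nearest loci in the order of the annotation, a median of 50.0% around the pseudogene members were pseudogenes, with a range of 4.00% to 70.0%. The median was 0% around protein-coding members, 2% over all matched loci and 60% around all pseudogenes. AT2G28053 and AT3G62455 lay in gene-rich surroundings, with 4.00% and 8.00%. Among protein-coding members, AT2G10975, with 0, 29 and 35 NRO counts, lay in the densest pseudogene surroundings (66%), and AT1G33840 did not (8.00%).

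Some protein-coding members with known functions were put into groups, drawn up after their values had been seen. The groups hold 22 members, and 45 members that are not pseudogenes are in no group. How often such roles occur over all loci was not examined. The developmental and hormone regulators were WOX2, AHL20, BOP2 (AT2G41370), which shapes the leaf base, the leaf polarity factors YAB2 (AT1G08465) and KAN3 (AT4G17695), the brassinosteroid-induced bHLH factor BEE1 (AT1G18400), the auxin-response repressor AXR3 (AT1G04250) and the MYB factor EPR1 (AT1G18330). These 8 had 22 to 80 NRO counts in nrpd1-3 and 24 to 90 in nrpe1-11. Their summed RNA counts were 4, 18 and 19, a ratio to Col-0 of 5.10 (counting interval 1.68 to 20.7) and 4.90 (1.63 to 19.8). BEE1 had 0, 37 and 61 NRO counts and 0, 5 and 4 RNA counts.

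Cell wall members were FRA8 (AT2G28110), a glycosyltransferase of xylan synthesis, XTH31 (AT3G44990), which remodels xyloglucan, the pectin methylesterase ATPMEPCRD (AT2G43050) and DGR1 (AT1G80240), a DUF642 protein. All 4 had 0 RNA counts in Col-0, and their sums were 7 in nrpd1-3 and 19 in nrpe1-11. Against a floor of 3 Col-0 counts over the group, these were 2.65-fold and 6.53-fold higher, with exact lower limits of 1.63 and 4.81. FRA8 alone had 0, 58 and 55 NRO counts and 0, 4 and 10 RNA counts.

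In 2 groups the RNA counts did not separate mutants from Col-0. The plastid and mitochondrial proteins were CPSUFE (AT4G26500), a chloroplast sulfur-transfer protein, the haem oxygenase HO4 (AT1G58300), the mitochondrial RNA editing factor MEF29 (AT4G30700), FLN1 (AT3G54090), a fructokinase-like protein of plastids, the plastid signal peptidase PLSP1 (AT3G24590), PTAC18 (AT2G32180), found in plastid transcription complexes, and mTERF9 (AT5G55580). Their RNA sums were 6, 10 and 9, with ratios of 1.89 (0.622 to 6.33) and 1.55 (0.492 to 5.28). CPSUFE, with 0, 56 and 65 NRO counts, had 2, 4 and 2 RNA counts. CDKB2;1 (AT1G76540), a mitotic kinase, RAD51C (AT2G45280), a DNA repair protein, and NOP10 had RNA sums of 6, 2 and 3, with ratios of 0.378 (0.0373 to 2.11) and 0.516 (0.0835 to 2.42).

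CDKB2;1 also belongs to a list of dividing-cell markers. It had 0, 48 and 61 NRO counts and 3, 1 and 1 RNA counts. The other two markers went differently in NRO, the cyclin CYCB1;1 (AT4G37490) with 4, 12 and 0 counts and the cytokinesis syntaxin KN (AT1G08560) with 10, 26 and 45. The summed NRO level of the 3 markers was 6.99, 9.80 and 11.4 CPM and their summed RNA level 8.35, 9.47 and 2.15 CPM. The rise in NRO is that of CDKB2;1, which the rule fixed. Without it the 2 other markers summed to 6.99, 4.33 and 4.85 CPM in NRO and 2.09, 7.10 and 0 CPM in RNA. The part of dividing cells in these counts was not tested, and in whole leaves fewer cells of a type and less RNA per cell cannot be told apart.

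RNA was not used to choose the loci, and it was examined over all 76. Summed RNA counts were 35 in Col-0, 149 in nrpd1-3 and 153 in nrpe1-11, or 73.1, 353 and 329 CPM. The ratio to Col-0 was 4.83 (counting interval 3.32 to 7.19) in nrpd1-3 and 4.51 (3.11 to 6.71) in nrpe1-11. With library totals in place of TMM sizes, the ratio in nrpd1-3 was 7.83. Over 3754 other loci with a smaller mutant NRO count of 20 to 49, the same ratios were 1.03 (0.999 to 1.06) and 1.19 (1.16 to 1.23). Without pseudogenes and AT1G33840, the remaining 66 members had ratios of 2.57 (1.69 to 3.97) and 3.03 (2.04 to 4.62). The 42 members with a smaller mutant count of 20 to 29 had ratios of 2.93 (1.64 to 5.48) and 2.43 (1.35 to 4.57), and the 34 with 30 or more had 6.61 (3.99 to 11.6) and 6.48 (3.92 to 11.3). These subsets were formed after the data were seen. Both mutants are set against the same Col-0 library, and whether NRO and RNA came from the same plants was not given, so a Col-0 sample that differs from the mutants in another way cannot be told apart from the genotypes.

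**Figure D3:**
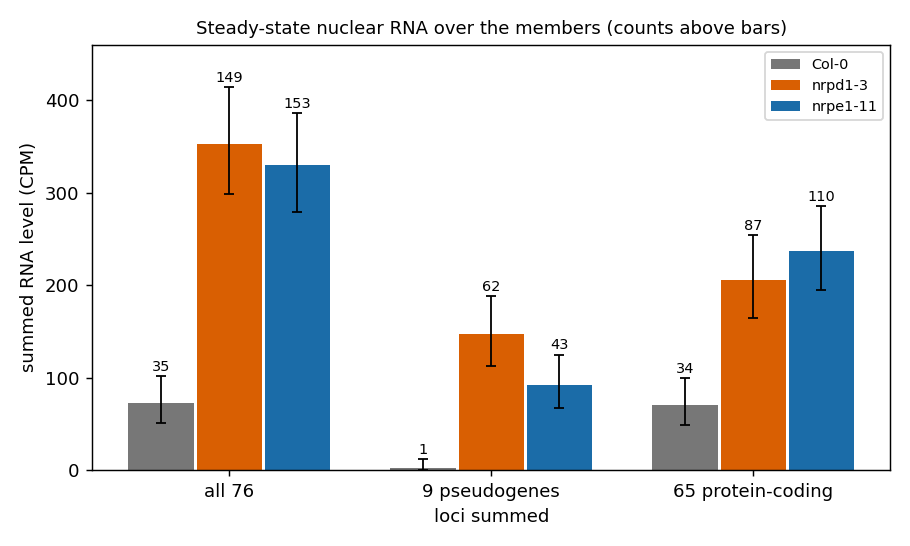
Summed RNA level (CPM) in each library over all 76 members, the 9 pseudogenes and the 65 protein-coding loci. Bars start at 0, error bars are exact 95% Poisson intervals and the numbers are summed counts, with 35 in Col-0 against 149 and 153 in the mutants for all members.

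**Figure D4:**
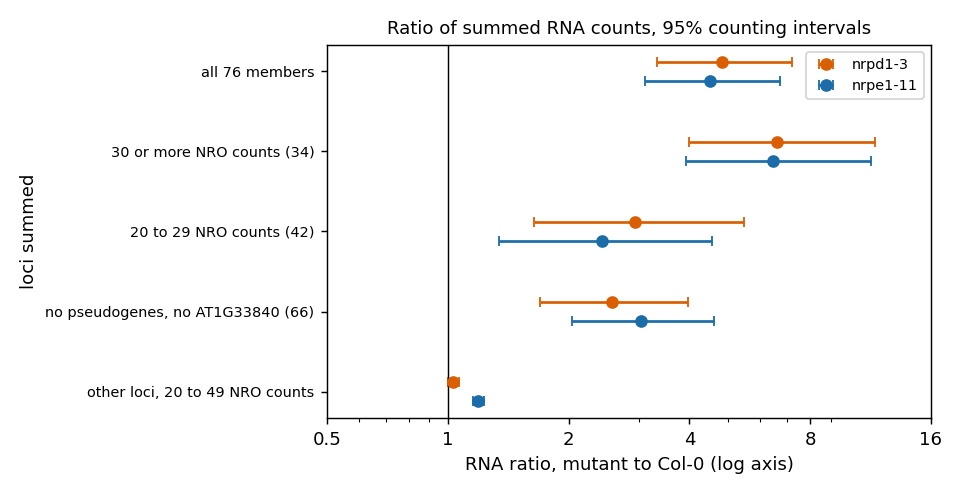
Ratio of summed RNA counts of each mutant to Col-0 on a log axis, with exact 95% counting intervals, for all members, for subsets of them and for other loci of like NRO count. The members' intervals lie above 1 in every subset shown, and the other loci lie at 1.03 and 1.19.

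Locus by locus, RNA was sparse. RNA counts were found at 40 of the 76 loci in nrpd1-3 and 49 in nrpe1-11, against 25 in Col-0, and 19 had none in any library. At 18 loci both mutants had RNA counts and Col-0 had none, and at 3 loci Col-0 alone had them. Among all loci with at least 20 NRO counts in both mutants, 4.34% showed the first pattern (630 of 14503), and 257 showed the second. Most of those loci had RNA counts in each library, 90.6% in Col-0, 89.8% in nrpd1-3 and 91.9% in nrpe1-11. The interval of the RNA ratio lay above 1 at 9 of 47 members with a count in nrpd1-3 or Col-0, where the share over all loci was 4.26%. They were AT1G33840, AT5G35205, AT5G35935, AT4G04280, AT5G28715, AT3G32195, AT1G36680, BEE1 and AT2G16050. In nrpe1-11 this held at 5 of 53 members, against 6.42% of all loci, namely AT1G33840, AT5G35205, AT5G35935, AT3G32195 and FRA8. AT1G64180, with RNA counts of 2, 3 and 6, and AT5G48460, with 2, 3 and 4, were also among the 10 members with most RNA counts, and their intervals included 1. In NRO these had 0, 40 and 50 and 0, 28 and 21 counts. No member had an interval below 1, against 5.03% and 6.39% of all loci. A member at 0 to 3 Col-0 counts can hardly reach such an interval on the low side.

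The mutants were also compared with each other, a difference that the rule limits but does not set. Of loci without a Col-0 count, 150 reached 20 NRO counts in nrpd1-3 and 174 in nrpe1-11, and the 78 that did so in both, the 2 left out included, are those from which the members come. Loci high in a single mutant were thus removed, and a like level in both is in part a result of the choice. By CPM, 39 of the 76 were higher in nrpe1-11 and 37 in nrpd1-3, the median log2 ratio was 0.06 (0.00 over all loci), and the counting interval included 1 at 62 loci. By the size rule 4 members were lower and 0 higher in nrpe1-11, where 4.66% and 3.35% of all loci were. With library totals in place of TMM, 1 member was higher and 4 were lower. AT1G36680, a pseudogene, had 80 and 21 NRO counts in nrpd1-3 and nrpe1-11, a ratio of 0.248 (0.146 to 0.405), and RNA counts of 9 and 0. AT4G04280, with 117 and 40 NRO counts, had a ratio of 0.323 (0.220 to 0.466). AT1G30814, with 52 and 20, had a ratio of 0.363 (0.206 to 0.619), and AT2G16050, with 76 and 31 in NRO and 7 and 3 in RNA, a ratio of 0.385 (0.245 to 0.593).

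At the other end, 8 members had intervals above 1 without reaching 2-fold. The highest of these ratios were those of AT3G62455 at 1.95 (1.35 to 2.87), AT3G21540 at 1.74 (1.22 to 2.51), AT4G31030 at 1.73 (1.01 to 3.01) and AT1G07025 at 1.70 (1.02 to 2.89). TPX2 (AT1G65970), a thioredoxin-dependent peroxidase, had the same 25 and 45 NRO counts as AT1G07025 and so the same ratio. AT3G13150, with 20 and 37 NRO counts, was among the 5 highest by log2 ratio (0.73), with an interval that included 1. AT1G33840 stood at 1.60 (1.33 to 1.94) and AT5G35205 at 1.37 (1.13 to 1.66). PDLP2 (AT1G04520), a plasmodesmata protein, was among the 5 lowest with 38 and 20 counts (log2 ratio −0.92).

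A model with terms for assay and genotype over all 6 libraries tested the difference between mutants, with edgeR's quasi-likelihood test and Benjamini-Hochberg adjustment over 14530 loci. AT1G36680 fell in nrpe1-11 against nrpd1-3, with a log2 fold change of −2.32 ± 0.516 (SE, adjusted p = 0.00171), and AT4G04280 fell with −1.72 ± 0.451 (adjusted p = 0.0142). These were the only 2 of 76 members called lower, against 1.67% of all loci, and 0 were called higher, against 0.461%. At an unadjusted p under 0.05, 4 members were lower and 1 higher. Both calls were lost without either mutant's RNA library (adjusted p of 0.0586 and 0.0631 at AT1G36680, 0.145 and 0.122 at AT4G04280), without the assay term (adjusted p = 0.999985 at each), and in DESeq2 without independent filtering, which called 0 members and had 1 lower at an unadjusted p under 0.05. With library totals the call at AT4G04280 was lost as well (adjusted p = 0.104). Where calls were lost, the log2 fold change ran from −3.43 to −2.01 at AT1G36680 and from −1.89 to −1.54 at AT4G04280. The spread in this model is the disagreement between assays and not that between plants. It was fully pooled over the loci tested (infinite prior degrees of freedom). The SE and adjusted p therefore do not measure how far the assays disagree at a single locus.

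The neighbours of the members in the annotation were looked at because reads can run on from one gene into the next. No member was next to another. Of 130 neighbours present in the files, 45 had 0 NRO counts in Col-0 (34.6%, against 40.5% of all loci). Of the 66 neighbours that reached the NRO filter, 12 were higher in nrpd1-3 (18.2%) and 11 in nrpe1-11 (16.7%), beside the 9.31% and 12.1% given above for all loci. AT1G36675, next to AT1G36680, had 1, 107 and 7 NRO counts, so both were higher in nrpd1-3 than in nrpe1-11. The pseudogene AT2G10980, next to AT2G10975, had 1, 49 and 14. FSD1 (AT4G25100), an iron superoxide dismutase next to AT4G25090, had 88, 953 and 1268. These 3 were chosen after their values were seen. At 18 members the table shows an overlap with a neighbouring gene, CDKB2;1, FRA8, CPSUFE, AT4G25090, AT5G24240 and AT4G31030 among them.

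Other genes of the pathway were mostly within the size rule. Of 28 listed factors of RNA-directed DNA methylation none was a member, though RDR2, the RNA polymerase that works with Pol IV, meets the counts, was left out by the rule and is not on the list. Of the 28, 16 reached the NRO filter. The size rule put 2 of these up in nrpd1-3 (MORC6 and NRPD1, its own mutated gene) and 1 down, where 6.99% of all loci were lower. In nrpe1-11 it put 2 up and 2 down, where 11.1% of all loci were lower. Their median log2 ratios were 0.24 and 0.05, against 0.03 and 0.04 over all loci. MORC6 (AT1G19100), an ATPase of gene silencing, had 8, 75 and 80 NRO counts (log2 ratios 1.04 and 1.05), and IDN2 (AT3G48670), an RNA-binding protein of the pathway, had 26, 36 and 50 (−1.59 and −1.22). Among 9 factors of DNA methylation maintenance and removal, 7 reached the filter. Of those, nrpd1-3 had 2 up and 1 down, and nrpe1-11 had 1 each way. The factor down was ROS1 (AT2G36490) each time, with 58, 41 and 72 NRO counts (log2 ratios −2.56 and −1.86). RNA counts of ROS1 were 22, 1 and 4. MET1 (AT5G49160), with 7, 71 and 71 NRO counts, was up each time. SUVH4 (AT5G13960), with 8, 196 and 40, was up in nrpd1-3 only. Against Col-0, the additive model with edgeR's quasi-likelihood test called ROS1 lower in nrpd1-3 and nrpe1-11 (adjusted p = 1.09e-09 and 8.57e-07). It called SUVH4 higher in nrpd1-3 (adjusted p = 0.00708). MET1 (0.155 and 0.126), MORC6 (0.344 and 0.392) and IDN2 (0.0624 and 0.0944) were not called in this test. The cause of these differences was not tested. Of 15 loci known as controlled by DNA methylation, SDC was the only member, and 8 had no NRO count in any library. FWA (AT4G25530), a homeobox gene silenced by methylation, had 0, 1 and 2 NRO counts and no RNA count.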

How the data were processed

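The authors deposited whole-number read counts per gene for 6 libraries, made with Trimmomatic 0.33, TopHat2 2.1.0 and HTSeq on TAIR10, per the submitters' processing notes. Strand setting, counting mode and annotation release are not given in the sources used. Reads aligned more than once stood on a summary line and in no gene, so repeated loci are under-counted. The 5 summary lines and 279 organelle genes, all at 0, stayed out. Chromatin samples were not analysed here.

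The members and lists were chosen with earlier results of these data known. Library sizes were TMM-scaled within each assay over loci that reached 20 counts in any library (edgeR 4.0.16, R 4.3.3), and log2 ratios used a prior count of 2. Ratio intervals are exact conditional binomial (Clopper-Pearson) and level intervals Poisson, at 95%. Intervals and floors (3 counts per library) cover counting error only, as reads copied by PCR and lacking molecular identifiers cannot be counted as separate molecules. The additive model used loci that reached 20 counts in 2 libraries or more and leaves 2 residual degrees of freedom, with an infinite prior. Its SE is the log2 fold change over the root of F. DESeq2 1.42.0 was an alternative. CPM ranks are not corrected for gene length.

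Named loci are the 12 highest by the smaller mutant NRO CPM, the 3 highest per annotation class, the 10 with most RNA counts, the 5 highest and lowest between mutants, list members, model calls, the 5 nearest to SDC and those nearest the threshold. Names and locus order came from the NCBI table, which matched 31912 loci.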

Additional observations from a re-analysis of the deposited data

How the results depend on the processing

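The number of members followed the threshold. It was 292 with at least 10 mutant NRO counts, 14 with at least 50, 207 with at most 1 Col-0 count, and 7 when the mutant libraries were scaled to the Col-0 total, all of which hold fewer or more loci by construction. The RNA ratio to Col-0 stayed above 1 in both mutants under all alternatives run. In nrpd1-3 it was 7.83 with library totals and 10.6 (counting interval 4.57 to 30.1) over the 14 members with at least 50 counts. Over the 7 members left after scaling it was 24.4 (6.35 to 208), which rests on 2 Col-0 RNA counts. Without pseudogenes it was 2.90, without pseudogenes and AT1G33840 2.57, and over members with 20 to 29 counts 2.93. In nrpe1-11 the corresponding ratios outside the main counting interval included 12.03 (5.26 to 33.9) over members with at least 50 counts. The others were 26.3 (6.92 to 223) after scaling, on the same 2 Col-0 counts, 3.03 without pseudogenes and AT1G33840, and 2.43 with 20 to 29 counts. Between the mutants, the interval alone, without the 2-fold limit, called 14 members (8 higher and 6 lower in nrpe1-11) in place of 4. The edgeR model called 1 member with library totals, 0 without the assay term, 0 in DESeq2 without independent filtering, and 0 to 3 when 1 library was left out. DESeq2 with its own filter gave no adjusted p for any member, and the fits without an NRO library of a mutant could not include the members. For single loci, 72 values under alternatives gave the same call, 9 were past the threshold no longer, and AT3G62455 passed the size rule with library totals (log2 ratio 1.13, against 0.93). No paired analysis was possible because each assay and genotype had 1 library. The cause of these differences was not tested. A Col-0 NRO count of 0 leaves room for 1.498 CPM by the floor of 3 counts and 1.84 CPM by the 2-sided interval, which limits what the rule can show.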
